A study of Mus musculus with 8 samples.

Results

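Krt7, Krt8, Krt18, Krt19 and Krt20, the keratins of simple (single-layered) epithelia, were followed by gene symbol through RNA of sorted newborn mouse skin cells. They were 5 of the 24538 genes with a count row, beside 49 other keratins. All 5 had values in both the counts and the FPKM table, and all 5 were among the 15151 genes tested. Krt8, Krt18 and Krt20 passed the low-count filter through the Merkel libraries alone, so the number of members called describes them and supports nothing further.

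The study concerns the formation of Merkel cells in hairy and glabrous skin. All cells came from postnatal day 0 mice of the genotype Atoh1-GFP, in which green fluorescent protein (GFP) reports the Merkel cell factor Atoh1, so the controls carry the same allele. Merkel cells were sorted as GFP+, EpCAM+ and Sca1-, and IFE cells, an abbreviation the labels leave unexplained, as GFP-, EpCAM+ and Sca1+. The 4 groups were paw Merkel, paw IFE, back Merkel and back IFE, with 2 libraries each made from amplified RNA. Whether both libraries of a group stem from different animals is not labelled, so the p-values reflect spread among samples that may be technical. The GFP gate takes every cell in which the reporter is on, and each library is a bulk sample, in which fewer cells of a type and less RNA per cell cannot be told apart.

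Keratin filaments are built from pairs of a type I (acidic) and a type II (basic) chain, and neither type forms filaments alone. Krt7 and Krt8 are type II chains and Krt18, Krt19 and Krt20 are type I chains. Basal keratinocytes of stratified skin use Krt5 with Krt14 instead, whereas Merkel cells, the touch receptors of the epidermis, are recognised in tissue sections by Krt8, Krt18 and Krt20. In the GENCODE annotation of GRCm38 (mm10), the type II genes Krt7 (chr15:101411043-101430313, plus strand) and Krt8 (chr15:101996698-102004482, minus strand) lay in the type II cluster with Krt18 (chr15:102028180-102032027, plus strand), the one type I gene found there. Krt8 and Krt18 were 23697 bases apart and pointed away from each other. Krt20 (chr11:99428403-99438150) and Krt19 (chr11:100140810-100148665), both on the minus strand, lay among the type I keratins. Genes on the opposite strand, Gm671 and Gm36026, covered 1.09% of the exonic bases of Krt7 and 5.16% of those of Krt8. The strand setting of the counting was not given in the sources used here, so reads of these pairs could not be told apart.

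The start-site windows of the members are shown because 3 of them moved together between the cell types. A RefSeq window (GRCm38.p6) was matched for 4 of the 5 members, Krt19 being the exception, and each runs from 250 bases before the RefSeq start of the gene to 30 bases after it, written 5' to 3' on the strand of the gene. RefSeq and GENCODE place the starts of some of these genes differently. The whole Krt7 window lies inside the GENCODE gene, and the GENCODE start of Krt8 lies within its window, before the RefSeq start. Positions below count from the RefSeq start only. Capitals mark TATAAA and CACCTG, as well as the letters GGGCGG, in either orientation. The windows are chr11:99438124-99438403 (minus strand) for Krt20, chr15:102004313-102004592 (minus strand) for Krt8, chr15:102027966-102028245 (plus strand) for Krt18 and chr15:101412153-101412432 (plus strand) for Krt7.
Krt20: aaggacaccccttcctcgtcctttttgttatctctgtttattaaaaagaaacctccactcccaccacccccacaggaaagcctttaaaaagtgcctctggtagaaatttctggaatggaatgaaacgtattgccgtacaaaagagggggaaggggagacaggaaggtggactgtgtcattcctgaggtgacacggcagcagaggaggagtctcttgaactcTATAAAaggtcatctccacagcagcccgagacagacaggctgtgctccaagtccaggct
Krt8: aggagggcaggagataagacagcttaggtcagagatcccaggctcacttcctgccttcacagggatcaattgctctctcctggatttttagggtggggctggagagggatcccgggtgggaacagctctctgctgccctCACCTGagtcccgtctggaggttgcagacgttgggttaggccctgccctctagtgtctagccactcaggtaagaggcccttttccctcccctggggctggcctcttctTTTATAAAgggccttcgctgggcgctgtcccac
Krt18: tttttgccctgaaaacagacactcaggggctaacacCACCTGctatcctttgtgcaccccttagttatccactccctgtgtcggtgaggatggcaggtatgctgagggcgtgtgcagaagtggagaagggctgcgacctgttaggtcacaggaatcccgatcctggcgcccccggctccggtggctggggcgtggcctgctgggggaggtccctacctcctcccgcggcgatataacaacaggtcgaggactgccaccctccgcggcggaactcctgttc
Krt7: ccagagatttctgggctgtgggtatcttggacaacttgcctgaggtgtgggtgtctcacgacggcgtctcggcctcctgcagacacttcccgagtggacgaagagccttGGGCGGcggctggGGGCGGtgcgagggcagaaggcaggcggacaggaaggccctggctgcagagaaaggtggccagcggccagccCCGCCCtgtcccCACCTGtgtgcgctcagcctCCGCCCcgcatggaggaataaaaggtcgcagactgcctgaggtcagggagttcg

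The letters TATAAA (both strands, as for every motif) stood at -29 to -24 of the Krt20 window, counting the base before the start as -1. In Krt8 the same letters spanned the RefSeq start, at -1 to 5, and overlapped a reverse match at -3 to 3. Of 32851 RefSeq windows of this length, 13.1% held TATAAA. The E-box letters CAGNTG were found in Krt7, Krt8 and Krt18 and in 48.9% of all windows. Each of the 3 matches read CACCTG, at -44 to -39 in Krt7, -111 to -106 in Krt8 and -214 to -209 in Krt18. CACCTG, which is a form of CAGNTG read on the other strand and was added to the search after the matches were seen, was in 19.1% of windows. The GC-box letters GGGCGG occurred 4 times in Krt7, at -141 to -136, -128 to -123, -56 to -51 and -24 to -19, and in none of the other 3 windows, against 34.7% of all windows. TGANTCA, the AP-1 letters, was in none of the 4 windows and in 7.46% of all. These matches describe the letters only.

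Total counts ran from 11139306 to 26195076 per library. All 11 Merkel cell markers tested were higher in Merkel than in IFE cells at both sites, with summed levels of 3303 to 5661 CPM (counts relative to the scaled library size) in the 4 Merkel libraries and 13.9 to 19.8 CPM in the 4 IFE libraries. Of 11 basal keratinocyte markers, 8 were lower in Merkel cells at the paw and 10 at the back. Over all genes tested, 4.28% were higher and 1.93% lower in Merkel cells at the paw, and 7.99% and 7.45% at the back. The library labelled back IFE 2 went against its label in Hox genes, which mark position along the body. Its levels of 28 Hox genes correlated at 0.753 and 0.883 with the 2 paw IFE libraries and at -0.0752 with back IFE library 1, while back IFE library 1 correlated at 0.822 and 0.736 with the 2 back Merkel libraries (Pearson r across genes, which are not independent replicates). The paw Merkel libraries also stood apart from each other: on the first principal component, with 51.8% of the variance, library 1 was at -55.2, library 2 at -152 and the back Merkel libraries at -141 and -172, and on the second, with 14.8%, paw Merkel library 2 was at -164. Libraries are named as labelled throughout. The back log2 differences of Krt7, Krt8 and Krt20 are also given without back IFE library 2, as are the site differences of Krt7 that involve it. Many other results that use that library are given only with it.

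Krt8, Krt18 and Krt20 were far higher in Merkel cells than in IFE cells at both skin sites, by about 6.58 to 10.31 on the log2 scale at the paw and 7.10 to 10.95 at the back (n = 2 libraries per group). Krt7 was abundant in Merkel cells and also in 3 of the 4 IFE libraries, and Krt19 was low everywhere. At the paw, 3 of the 5 simple keratins passed the threshold, an adjusted p under 0.05 (edgeR quasi-likelihood F test, Benjamini-Hochberg method, all genes tested), against 6.21% of all genes tested in either direction and 4.28% with higher levels in Merkel cells. At the back it was again 3 of 5, against 15.4% in either direction and 7.99% higher. The median log2 difference of the 5 was 6.58 at the paw and 7.10 at the back, beside -0.04 and -0.06 over all genes tested. Both counts include members that were nearly undetected in IFE cells.

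**Figure D1:**
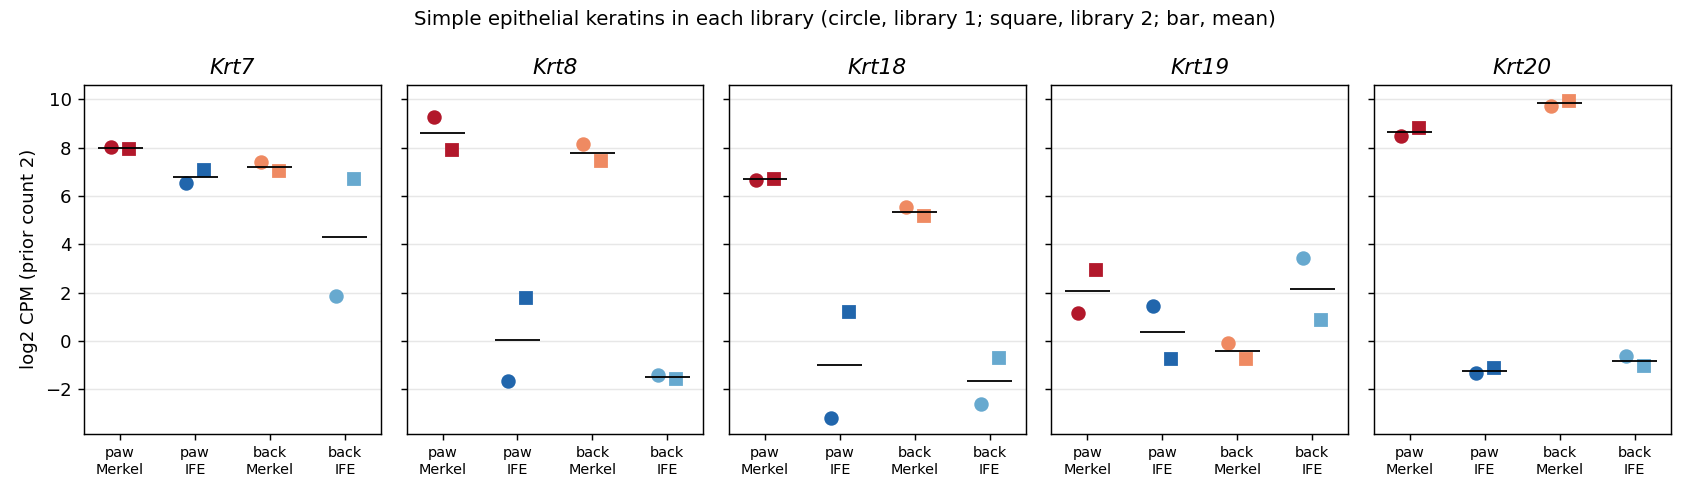
Level of each simple keratin (y axis, log2 CPM with a prior count of 2) in the 4 groups (x axis), with circles for library 1, squares for library 2 and a bar at the group mean. Krt8, Krt18 and Krt20 separate Merkel from IFE libraries without overlap, and Krt7 drops in back IFE library 1 alone, at 1.86.

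Krt20, a type I keratin otherwise known from intestine and urothelium and used as a Merkel cell marker, had the widest separation of the 5. Paw Merkel libraries 1 and 2 stood at 361 and 456 CPM, and the paw IFE libraries at 0.285 and 0.345 CPM. In back skin they were 844 and 982 CPM in the Merkel libraries and 0.543 and 0.382 CPM in the IFE libraries. No Merkel library came near an IFE library, and the IFE values stand for only 7 to 10 counts per library. The log2 difference was 10.31 ± 0.47 (SE) at the paw (adjusted p = 8.41e-07, edgeR) and 10.95 ± 0.48 at the back (adjusted p = 4.9e-07, edgeR). Both calls held with each of the 8 libraries left out in turn, and without back IFE library 2 the back value was 10.69.

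Between the sites, Krt20 was the member whose Merkel levels were lower at the paw. The mean was 408 ± 67.3 CPM (SD, n = 2) in paw Merkel cells and 913 ± 97.3 CPM in back Merkel cells, and the libraries of the 2 groups did not overlap. The log2 difference of paw against back was -1.16 ± 0.31, with an adjusted p of 0.205 in the edgeR test (0.00307 before adjustment). This difference therefore did not pass the threshold over all genes. By FPKM, a level per transcript length, Krt20 ranked back Merkel, paw Merkel, back IFE and paw IFE, and no group overlapped its neighbour in that order.

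Krt8, the type II chain that pairs with Krt18 in simple epithelia, was also nearly confined to the Merkel libraries. Paw Merkel libraries 1 and 2 had 623.5 and 240 CPM and the back Merkel libraries 282 and 173 CPM. The paw IFE libraries had 0.204 and 3.36 CPM, from 5 and 68 counts, and the back IFE libraries 0.271 and 0.229 CPM, from 5 and 6 counts. All Merkel libraries lay far above all IFE libraries, while paw Merkel library 1 stood above the other Merkel libraries and paw IFE library 2 above the other IFE libraries. The log2 difference was 7.94 ± 1.06 (SE) at the paw (adjusted p = 0.001, edgeR) and 9.80 ± 1.19 at the back (adjusted p = 0.000309, edgeR).

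The size at the paw depended on paw libraries, though the call did not. Leaving out paw Merkel library 1 gave 7.06 and leaving out its partner 8.47. The same step on the paw IFE side gave 7.01 for library 1 and 11 for library 2. Without back IFE library 2 the back value was 9.67. Krt8 in paw Merkel against back Merkel cells overlapped between the groups, with a log2 difference of 0.92 ± 0.78 (adjusted p = 0.725, edgeR).

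Krt18, the type I partner of Krt8, followed it at lower levels. Paw Merkel libraries had 101 and 105 CPM and back Merkel libraries 46.1 and 35.8 CPM. Paw IFE library 1 had no count, which allows up to 0.122 CPM by a limit of 3 counts, and paw IFE library 2 had 2.17 CPM. The back IFE libraries had 0.0543 and 0.496 CPM, from 1 and 13 counts, and such limits and counts cover counting error only. The Merkel libraries were above every IFE library, and those of the paw were above those of the back. The log2 difference was 6.58 ± 1.44 (SE) at the paw (adjusted p = 0.0206, edgeR) and 7.10 ± 1.51 at the back (adjusted p = 0.00879, edgeR).

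For Krt18 the paw call was lost when only the paw libraries were fitted (log2 difference 6.59, adjusted p = 0.0709, edgeR). It held with each library left out, at 5.57 without paw IFE library 1, and no size is given without paw IFE library 2 because the remaining library had no count. At the back the call held in all 8 such fits, at 6.34 without back IFE library 1, and no size is given without library 2 because library 1 had 1 count. In paw against back Merkel cells the log2 difference was 1.33 ± 1.14 with no overlap between the libraries (adjusted p = 0.73, edgeR). The count and FPKM of Krt18 differed in paw IFE library 2, where 44 counts went with 0.696 FPKM, fewer FPKM per count than in any other library with a count of this gene.

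Krt7, a type II keratin of glandular and ductal epithelia, was present in both cell types. Paw Merkel libraries 1 and 2 had 261 and 246 CPM, and paw IFE libraries 91.9 and 136 CPM. Back Merkel libraries had 167 and 130 CPM. Back IFE library 1 had 3.53 CPM, from 65 counts, and back IFE library 2 had 105 CPM, from 2757 counts. Merkel libraries were above IFE libraries at each site, and the 2 back IFE libraries differed more from each other than any other pair of this gene. The log2 difference of Merkel against IFE was 1.15 ± 0.95 (SE) at the paw (adjusted p = 0.537, edgeR) and 1.45 ± 0.95 at the back (adjusted p = 0.332, edgeR).

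The result for Krt7 at the back rested on back IFE library 2, the library whose Hox levels resembled the paw. Without it, Krt7 was higher in back Merkel than in back IFE cells, by 5.39 on the log2 scale (adjusted p = 4.29e-05, edgeR). Paw IFE exceeded back IFE by 5.01 in the same fit (adjusted p = 0.00226, edgeR), against 1.07 ± 0.94 with all libraries (adjusted p = 1, edgeR). The paw-minus-back difference of the Merkel effect was -4.24 without that library (adjusted p = 0.0179, edgeR) and -0.30 ± 1.32 with it (adjusted p = 0.995, edgeR). Each of these fits leaves 1 back IFE library, assumed to vary like the other groups. Without back IFE library 1 instead, the back value was 0.50 (adjusted p = 0.625, edgeR).

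Markers of other cells were read beside the Krt7 values of back IFE libraries 1 and 2. The summed Merkel markers were 13.9 and 14.7 CPM. Fibroblast markers (7 genes, Twist2 at 0 in both) summed to 92.6 and 411 CPM in the 2 libraries, and to 435 and 390 CPM in the paw IFE libraries. Immune and Langerhans markers (8 genes, none at 0 in both) summed to 1101 and 177 CPM, against 55.5 and 33.0 CPM in the paw IFE libraries. Sweat gland and duct markers (11 genes, with Foxa1, Foxi1, Aqp5, Pip, Lcn2 and Elf5 at 0 in both) summed to 144 and 167 CPM. Of this sum Slc12a2 was 87.0 and 146 CPM. Foxc1, Eda2r, Trpv6 and Atp6v1b1 were all lower in library 2, with Trpv6 at 35.3 and 16.5 CPM. The part of these cells, and of the Hox pattern, in the Krt7 difference was not tested.

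**Figure D2:**
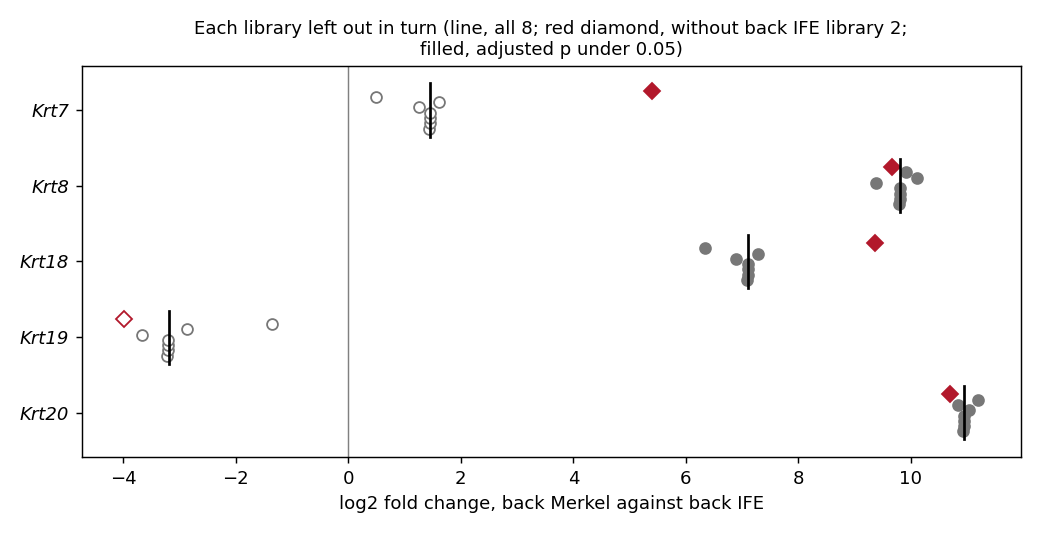
Log2 fold change of back Merkel against back IFE (x axis) for each simple keratin (y axis) with each of the 8 libraries left out in turn, with a line at the value from all 8 and filled symbols for an adjusted p under 0.05. Krt8, Krt18 and Krt20 stay filled throughout, and Krt7 is filled only at the red diamond, the fit without back IFE library 2, at 5.39.

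Krt19, a small type I keratin of ducts and hair follicle, was the least abundant member in Merkel cells. Paw Merkel libraries had 2.16 and 7.65 CPM and paw IFE libraries 2.65 and 0.494 CPM. Back Merkel libraries had 0.837 and 0.489 CPM and back IFE libraries 10.6 and 1.72 CPM. The groups overlapped at the paw, and at the back both IFE libraries lay above both Merkel libraries. The log2 difference of Merkel against IFE was 1.63 ± 1.57 (SE) at the paw (adjusted p = 0.61, edgeR) and -3.19 ± 1.69 at the back (adjusted p = 0.226, edgeR). Neither value nor their difference between the sites, 4.83 ± 2.30 (adjusted p = 0.577, edgeR), passed the threshold. The counts behind these levels ran from 5 to 195 per library.

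**Figure D3:**
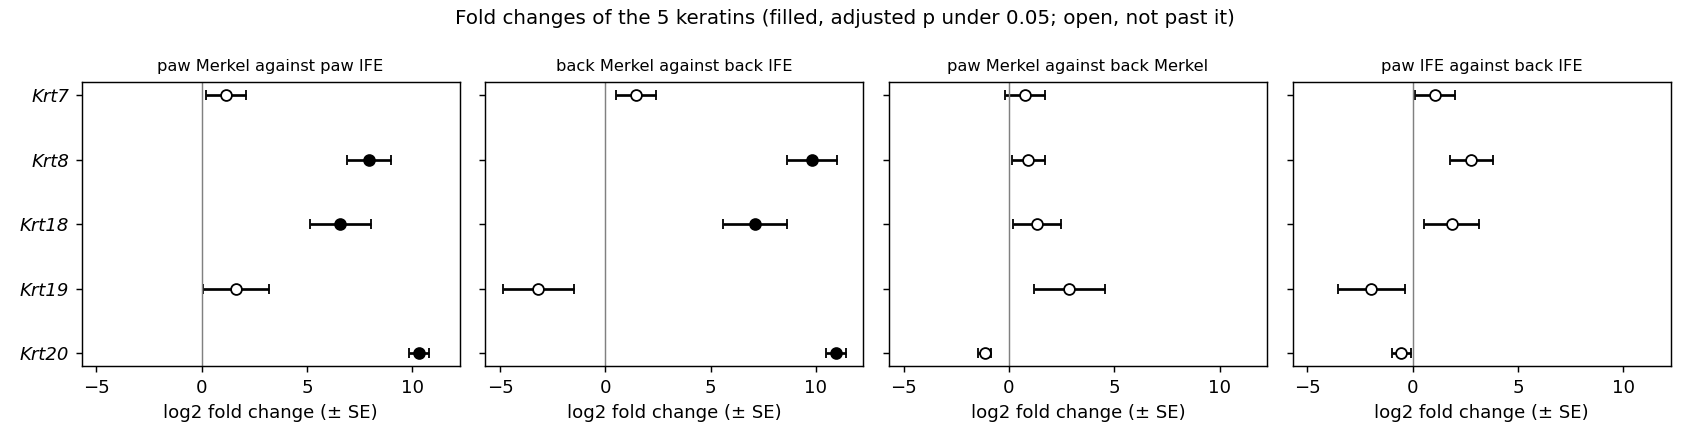
Log2 fold change with its SE (x axis) of the 5 keratins (y axis) in the 4 pairwise comparisons, filled where the adjusted p was under 0.05. Filled points are those of Krt8, Krt18 and Krt20 in the comparisons of Merkel with IFE, from 6.58 to 10.95. With all 8 libraries fitted, as here, the comparisons between sites hold none.

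No simple keratin passed the threshold between the sites with all 8 libraries, which the counts below use. Without back IFE library 2, whose Hox levels resembled the paw, Krt7 was higher in paw than in back IFE cells by 5.01 (log2). That fit leaves 1 back IFE library. In paw against back Merkel cells 0 of 5 were called, against 0.185% of all genes, with 1 of the 5 (Krt20) under an unadjusted p of 0.05 and 0 called by DESeq2. The log2 difference of paw against back was 0.77 ± 0.94 for Krt7 (adjusted p = 0.826, edgeR) and 2.87 ± 1.67 for Krt19 (adjusted p = 0.584, edgeR), in both cases without overlap between the libraries. In paw against back IFE cells edgeR called 0 of 5, with 0% of all genes called, 1 member (Krt8) under an unadjusted p of 0.05 and 0 members by DESeq2. Over all genes that comparison had 643 genes under an unadjusted p of 0.05 and 91 called by DESeq2.

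Among IFE cells, the log2 difference of paw against back was 2.79 ± 1.03 for Krt8, 1.86 ± 1.31 for Krt18, -1.96 ± 1.59 for Krt19 and -0.53 ± 0.44 for Krt20 (adjusted p = 1 for each, edgeR). The Krt8 value turned on the paw IFE libraries, and was 3.72 without library 1 (adjusted p = 0.0266, edgeR) and -0.28 without library 2. Krt8 and Krt18 were both higher in paw IFE library 2 than in library 1. Krt20 was 0.345 and 0.285 CPM and the summed Merkel markers 19.3 and 19.8 CPM in those libraries. Most of that sum was Piezo2 (10.76 and 12.96 CPM) and Syt13 (5.626 and 4.4 CPM). The genes most like Krt8 and Krt18, named below and picked for that likeness, were all higher in library 2. Among them Prox1 was 7.40 and 0.733 CPM and Celf5 2.17 and 0.122 CPM. The part of Merkel cells in the Krt8 and Krt18 values of paw IFE library 2 was not tested. With all 8 libraries, the difference between the sites in the Merkel effect called 0 of 5 members and 0% of all genes with edgeR. It had 0 members and 1365 genes under an unadjusted p of 0.05, and DESeq2 called 0 members and 301 genes. Its value was -1.86 ± 1.28 for Krt8 (adjusted p = 0.73), -0.52 ± 1.66 for Krt18 (adjusted p = 0.982) and -0.63 ± 0.56 for Krt20 (adjusted p = 0.802), all edgeR.

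Levels per transcript length (FPKM) were used to set the members against each other, and the orders and shares below hold for this unit only. The count and FPKM of Krt7 in paw Merkel library 2 imply a length of 719 bases, against 4094 in its longest coding transcript. The place and share of Krt7 depend on that length. The summed FPKM of the 5 reached 1098 and 1043 in the Merkel libraries of the paw, and 1081 and 995 in those of the back. It was 92.3 and 147 in the paw IFE libraries and 26.8 and 120.0 in the back IFE libraries. The total was thus of like size in all 4 Merkel libraries, and far below it in all 4 IFE libraries. Its make-up differed between them.

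In paw Merkel library 1 the FPKM order was Krt8, Krt7, Krt20, Krt18 and Krt19, and in library 2 Krt20, Krt7, Krt8, Krt18 and Krt19. Both back Merkel libraries had Krt20, Krt8, Krt7, Krt18 and Krt19. Krt20 made up 18.9% and 30.7% of the summed FPKM in the paw Merkel libraries and 50.7% and 66.3% in the back Merkel libraries, without overlap. Krt7 plus Krt8, the type II chains, made up 71.3% and 53.0% at the paw and 43.4% and 29.9% at the back. These shares were not tested, since with 2 libraries against 2 the smallest p of a two-sided exact permutation test is 0.333. In IFE libraries Krt7 was 94.8% and 97.3% of the summed FPKM at the paw and 15.6% and 97.2% at the back, where library 1 instead had 82.1% Krt19.

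**Figure D4:**
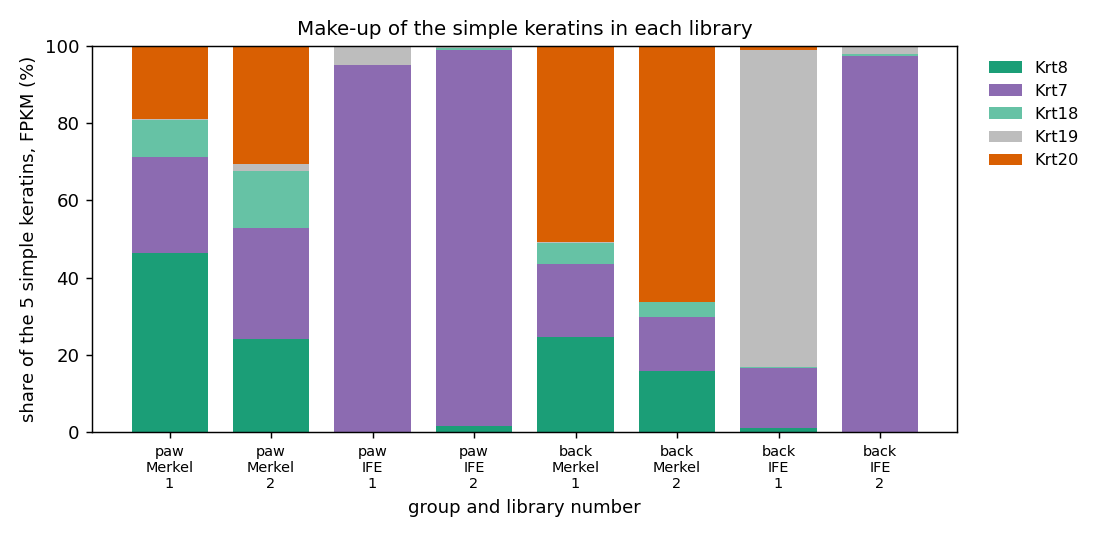
Share of each member in the summed FPKM of the 5 simple keratins (y axis, percent) in each library (x axis, group and library number). Krt20 grows from 18.9% and 30.7% in the paw Merkel bars to 50.7% and 66.3% in the back Merkel bars, and Krt7 fills all IFE bars except that of back IFE library 1.

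The ratio of Krt8 to Krt18 by FPKM was 4.90 and 1.66 in the paw Merkel libraries and 4.38 and 4.24 in the back Merkel libraries. The type II share of the 5 depended on the unit, since it was 62.1% ± 12.9 (SD, n = 2) at the paw and 36.6% ± 9.59 at the back by FPKM, and 45.6% and 21.5% by counts per kilobase of merged exons. The exon length of Krt7 is uncertain (7049 merged exonic bases, 4094 in the longest coding transcript). Over all 54 keratins, 27 of each type, type II chains made up 49.1% and 48.6% of keratin FPKM in the paw Merkel libraries and 45.5% and 44.5% in the back Merkel libraries.

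Beside the other keratins, the 5 simple keratins made up 16.2% and 41.6% of all keratin FPKM in Merkel libraries 1 and 2 of the paw, against 34.2% and 36.3% for the back. They were 0.454% and 0.621% in the paw IFE libraries and 0.0728% and 0.488% in the back IFE libraries. The low share in paw Merkel library 1 went with suprabasal keratins (Krt1, Krt2, Krt9, Krt10 and Krt77, of differentiated layers and palms and soles), which were 50.4% of its keratin FPKM and 12.9% in library 2. The leading other keratins differed between the paw Merkel libraries, with Krt10 (1816 FPKM), Krt1 (1409 FPKM) and Krt5 (935 FPKM) in library 1 and Krt5 (428 FPKM), Krt14 (323 FPKM) and Krt15 (200.5 FPKM) in library 2. Krt10, Krt1 and Krt5 led in both back Merkel libraries, in another order in each.

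**Figure D5:**
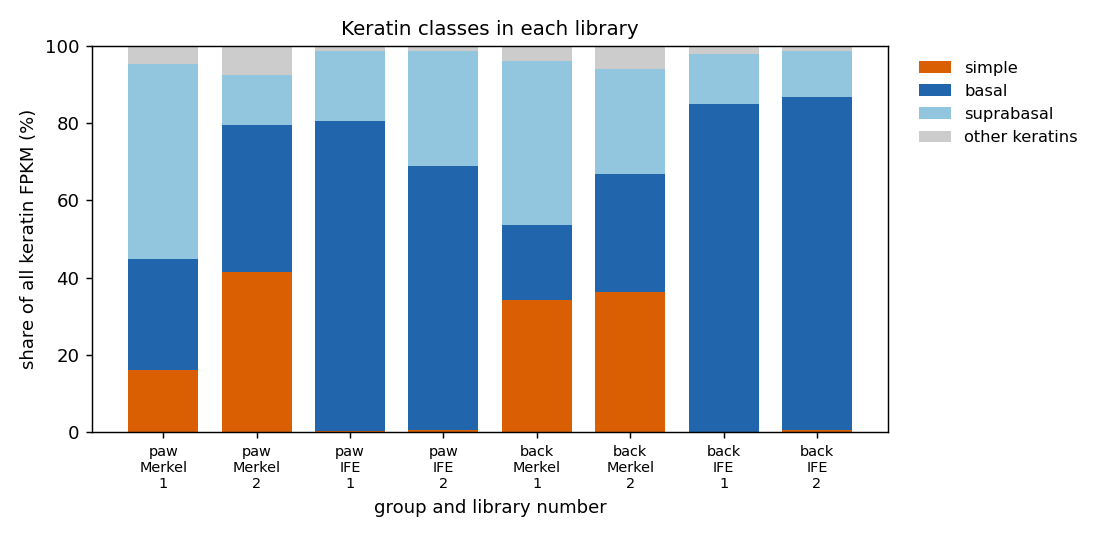
Share of keratin classes in all keratin FPKM (y axis, percent) in each library (x axis, group and library number). The simple keratins take 16.2% to 41.6% of the Merkel bars and are too thin to see in the IFE bars, at 0.0728% to 0.621%.

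All other keratins that were called were lower in Merkel cells, except Krt87 at the back. Of 49 with a count row, 29 were tested, and 0 were higher and 4 lower in paw Merkel than in paw IFE cells (Krt5, Krt14, Krt15 and Krt16), where 1.93% of all genes were lower. At the back 1 was higher (Krt87, the gene next to Krt7) and 7 lower (Krt5, Krt14, Krt15, Krt9, Krt16, Krt17 and Krt24), where 7.45% of all genes were lower. Krt5, the basal type II chain, fell by 3.97 ± 0.50 on the log2 scale at the paw (967 ± 552 against 15200 ± 1856 CPM, adjusted p = 0.000668, edgeR). Its back value was -5.45 ± 0.54 (adjusted p = 7.74e-05, edgeR). All 3 basal keratins, Krt5, Krt14 and Krt15, were lower at both sites with any 1 library left out, and at the paw they were at -4.74, -3.94 and -3.68 without paw Merkel library 1. The calls of Krt16 were lost without any of 3 libraries at the paw and of 4 at the back, with adjusted p-values up to 0.332 and 0.272.

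By class, 0 of 5 suprabasal keratins were called at the paw and 1 was lower at the back (Krt9, -6.85 ± 1.41, which was -2.39 without back IFE library 2 and missed the threshold without back Merkel library 2, with an adjusted p of 0.056 by edgeR). Stress and mucosal keratins had 1 of 10 lower at the paw (Krt16) and 2 at the back (Krt16 and Krt17, the latter lost without any of 3 back libraries, and -1.01 with an adjusted p of 0.396 by edgeR without back IFE library 1). Of 20 hair and inner root sheath keratins 4 were tested and 0 called at either site. Among the 16 genes within 2 places of a member, 15 were tested, with 0 higher and 2 lower at the paw, where 6.21% of all genes were called in either direction, and 1 higher and 3 lower at the back, where 15.4% were. Eif4b, a translation factor that follows Krt18 on the chromosome, had 523 CPM in paw Merkel and 1020 CPM in paw IFE cells, a log2 value of -0.96 (adjusted p = 0.183, edgeR).

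Genes that handle keratin filaments were read from lists chosen by function. Of all genes tested, 4.28% were higher and 1.93% lower in Merkel cells at the paw, and 7.99% and 7.45% at the back. Of 10 tested genes for other intermediate filaments, 1 was lower at the paw and 2 at the back, and 1 was higher at each site. This was Ina, the neuronal filament alpha-internexin, at 46.7 ± 11.2 CPM in paw Merkel and 1.46 ± 0.861 CPM in paw IFE cells, a log2 difference of 5.0 ± 1.12 (adjusted p = 0.0227, edgeR). Leaving out paw IFE library 1 removed that paw call (adjusted p = 0.0584, edgeR), and the value was 5.76 without paw IFE library 2. At the back the Ina difference was 7.34 ± 1.24 (adjusted p = 0.00263, edgeR) and 6.40 without back IFE library 1. That library had no count of Ina, so no size is given without library 2, though the call held. Lmnb1, a nuclear lamin, was lower at both sites, with log2 differences of -1.92 ± 0.43 and -3.21 ± 0.45, the first lost without paw Merkel library 2 or either paw IFE library (adjusted p up to 0.095, edgeR). Vim, the mesenchymal vimentin, was lower at the back, at -3.62 ± 0.59 (-2.62 without back IFE library 1 and -4.21 without library 2).

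Of 18 keratin filament linkers and regulators, 0 were higher and 2 lower at the paw, and 1 higher and 5 lower at the back. The shares over all genes tested were 4.28% higher and 1.93% lower at the paw, and 7.99% and 7.45% at the back. Eppk1, the linker epiplakin, was 166 ± 38.8 CPM in paw Merkel and 672 ± 1.39 CPM in paw IFE cells (log2 difference -2.02 ± 0.33, adjusted p = 0.00365, edgeR). It was also lower at the back (-1.66 ± 0.32, adjusted p = 0.0056, edgeR), with an adjusted p of 0.0521 without back Merkel library 1. Pkp2, a desmosomal plaque protein of simple epithelia and heart, was the one higher at the back, with 90.1 ± 52.0 CPM in Merkel and 0.856 ± 1.06 CPM in IFE cells (log2 difference 6.67 ± 1.07, adjusted p = 0.00186, edgeR). Leaving out the second back Merkel library gave 5.92, and leaving out the first back IFE library gave 5.80. With the second back IFE library left out the call held, and no size is given because the first had 2 counts. At the paw Pkp2 was not called, though it had 695 and 655 counts in the Merkel libraries and 112 and 94 in the IFE libraries. Dsp, the desmosomal linker desmoplakin, was lower at the paw, at -1.25 ± 0.32, a call that any of 5 single libraries removed (adjusted p up to 0.274, edgeR).

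Genes usually found with simple keratins in single-layered epithelia were split. Of 20, 2 were higher and 1 lower at the paw, and 4 higher and 3 lower at the back. Over all genes tested, 4.28% were higher and 1.93% lower at the paw, and 7.99% and 7.45% at the back. Muc1, a cell-surface mucin, was higher at both sites, by 4.20 ± 0.71 at the paw (43.3 ± 22.6 against 2.34 ± 1.01 CPM, adjusted p = 0.00473, edgeR) and 5.17 ± 0.74 at the back (adjusted p = 0.000913, edgeR). Its value was 3.54 without paw Merkel library 2 and, at the back, 5.76 without back IFE library 2. Cldn6, a tight-junction claudin of early epithelia, had 53.8 ± 26.6 CPM in paw Merkel against 2.77 ± 1.68 CPM in paw IFE cells (adjusted p = 0.0121, edgeR), a call that leaving out paw IFE library 2 removed (adjusted p = 0.0882). At the back it had 41.1 ± 12.2 CPM in Merkel cells and 1 count in all in the IFE libraries (adjusted p = 0.000254, edgeR).

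Of 21 transcription factors of epithelia tested, 1 was higher and 4 lower at the paw, against 6.21% of all genes called in either direction, and 0 were higher and 4 lower at the back, against 15.4%. Grhl2, a grainyhead factor of epithelial junction genes, was lower at both sites, at a log2 difference of -1.99 ± 0.36 at the paw (59.1 ± 11.5 against 234 ± 8.75 CPM, adjusted p = 0.00709, edgeR) and -3.10 ± 0.38 at the back (adjusted p = 0.000309, edgeR), with every library left out in turn. Klf4, a factor of differentiating epithelium, was the one higher at the paw (1.31 ± 0.35, adjusted p = 0.0484, edgeR), a call lost without paw Merkel library 2 or either paw IFE library (adjusted p up to 0.242).

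Markers of other cells that a sort could hold were counted in the same comparisons. Of all genes tested, 6.21% were called in either direction at the paw and 15.4% at the back. Sweat gland and duct markers had 0 of 6 tested called at both sites, hair follicle markers 0 of 9 at the paw and 1 higher at the back (Nfatc1), and periderm markers 1 of 9 higher at the paw and 1 higher and 3 lower at the back, Cldn6 being the higher one. Of 4 melanocyte markers tested, 1 was higher at both sites, the receptor gene Kit, and the 7 markers of that list summed to 126 to 213 CPM in Merkel libraries, of which Kit was 102.5 to 194 CPM, and to 8.56 to 16.8 CPM in IFE libraries. Of 8 immune and Langerhans markers 3 were lower at the paw and 5 at the back, and of 4 fibroblast markers 1 was lower at the paw, and 1 was higher and 2 lower at the back. None of 3 endothelial, 3 Schwann cell and 1 skeletal muscle markers tested was called. Periderm markers summed to 287 to 616 CPM in Merkel and 730.5 to 1292 CPM in IFE libraries, lower where Krt8, Krt18 and Krt20 were higher, and sweat gland and duct markers to 126 to 242 CPM in Merkel and 144 to 182 CPM in IFE libraries. The part of other cells in the Merkel-against-IFE differences of the members was not tested.

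Over the 8 libraries the members fell into a set of 3 and 2 separate genes. The Pearson r of log2 CPM was 0.98 between Krt8 and Krt18, 0.957 between Krt8 and Krt20 and 0.927 between Krt18 and Krt20. Krt7 correlated at 0.614 with Krt8, and Krt19 was negative with all 4 others, from -0.172 to -0.511. These values describe 8 libraries in 4 groups, and the first 3 follow mainly from the contrast of Merkel with IFE libraries.

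Among 10180 genes with a group mean of at least 10 CPM, the 3 most like Krt20 were Sv2c, a synaptic vesicle protein (r = 0.9997), Bicd1, a dynein adaptor (0.9992), and Isl1, a LIM homeobox factor (0.999). Sv2c had 197 and 272 CPM in the paw Merkel and 478 and 602 CPM in the back Merkel libraries, lower at the paw as Krt20 was, and 0.244 to 0.434 CPM in IFE libraries. Closest to Krt8 were Prox1, a homeobox factor, Rasd2, a Ras-like protein (both 0.9886), and Tubb3, a neuronal tubulin (0.9862). Rasd2 and Tubb3 shared with Krt8 a highest value in paw Merkel library 1, at 96.8 and 70.4 CPM. Prox1 instead had its lowest Merkel value there, at 796 CPM. It was 1067 CPM in paw Merkel library 2 and 1183 and 1327 CPM in the back Merkel libraries. Closest to Krt18 were Celf5, an RNA-binding protein (0.991), Mfng, a Notch-modifying glycosyltransferase (0.9909), and Sema4f, a semaphorin (0.984).

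Krt7 was most like Sp9, a zinc-finger factor (r = 0.9776), Armcx4 (0.9752) and Sox11, an SRY-box factor (0.9707). Sox11 had 0.651 CPM in back IFE library 1 and 119 CPM in back IFE library 2, a gap of the same direction as that of Krt7. Sp9 had no count in back IFE library 1 and 2.52 CPM in library 2. Krt19 was most like Zfp53 (0.9364), Nabp2 (0.9243) and Commd3 (0.922), of which Zfp53 had its highest values in paw Merkel library 2 (49.3 CPM) and back IFE library 1 (26.5 CPM), the libraries where Krt19 was also highest. Each of these r values is the largest of many and describes these libraries only.

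In the order of group levels by FPKM, Krt8 ran from paw Merkel over back Merkel and paw IFE to back IFE, with overlap within each cell type and none between them. Krt18 had the same order, and the Merkel groups did not overlap each other or IFE, while the 2 IFE groups did. Krt7 also had this order, at 287 ± 20.7, 171 ± 44.0, 115 ± 39.0 and 60.4 ± 79.5 FPKM (SD, n = 2), with paw Merkel above the rest and overlap between each later pair of neighbours. For Krt19 it was back IFE, paw Merkel, paw IFE and back Merkel, with overlap between all neighbours.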

How the data were processed

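RNA of 8 libraries was analysed from gene counts and FPKM values as deposited. The authors' deposited counts are whole numbers per gene, and the deposited FPKM are fragments scaled by the authors to transcript length and depth. Per the submitters' processing notes, mm10, TopHat2 2.0.13, Cufflinks 2.2.1, featureCounts, Subread 1.4.6 and DESeq2 1.6.3 were used. Their settings and gene annotation are not given in the sources used here.

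Counts were tested with edgeR 4.0.16 (limma 3.58.1, R 4.3.3): filterByExpr by group, TMM scaling, 1 mean per group over all 8 libraries (4 residual degrees of freedom), quasi-likelihood F test and Benjamini-Hochberg adjustment over 15151 genes, threshold 0.05. The procedure was tested on simulated data. CPM are TMM-scaled, and log2 CPM use a prior count of 2. The SE of a log2 difference is its absolute value divided by the square root of the F statistic. It is thus derived from the test and not estimated apart from it. Total counts of 11139306 to 26195076 per library set the precision, and a count of 0 allows up to 3 counts. Amplified reads are not independent molecules.

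The members and the 20 gene lists were chosen with earlier results of these data known. Named genes are the 5 members, the 3 genes most like each, up to 3 genes past the threshold per list and comparison and up to 2 in the other direction by smallest adjusted p, the 3 leading other keratins per group, and defining markers. Genes single to a small count were named after their values were seen. Replicate numbers were not used as pairs. Alternatives were DESeq2 1.42.0, limma on log2 CPM or on log2 of FPKM plus 1 or plus 0.1, RLE scaling, no low-count filter, a replicate block, only the groups compared, other length units and each library left out. All libraries were used. The values of 1 gene of a list are not reported here.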

Additional observations from a re-analysis of the deposited data

How the results depend on the processing

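The 3 calls of Merkel against IFE at the back held under every alternative run, and those at the paw under all but the fit of only the groups compared, which lost Krt18 (2 of 5 called). Without back IFE library 2 or without the low-count filter 4 of 5 were called at the back, Krt7 added (adjusted p = 0.00736 without the filter, edgeR). The number of all genes called moved far more. For Merkel against IFE at the paw, the same at the back, Merkel cells between sites, IFE cells between sites and the interaction, in this order, edgeR called 941, 2338, 28, 0 and 0 genes and DESeq2 2364, 4190, 625, 91 and 301. Without the filter edgeR called 1920 at the paw, 452 between Merkel cells, 120 between IFE cells and 305 for the interaction, and 1 simple keratin between IFE cells (Krt8, adjusted p = 0.000149). With only the groups compared it called 537 at the paw and 5 between Merkel cells, and that fit gives no interaction, which needs all groups. RLE scaling gave 1 gene for the interaction. Limma on log2(FPKM + 1) called 13 genes between Merkel cells, 2 between IFE cells and 2 for the interaction. A pseudocount of 0.1 gave 12 between Merkel and 1 between IFE cells, and a pseudocount of 1 without filter 441 at the paw and 8 between IFE cells. With each library left out, the ranges were 561 to 2369, 1307 to 3376, 1 to 177, 0 to 67 and 0 to 41 genes in the order above, with 0 to 1 simple keratins between IFE cells and for the interaction. Whether the replicate numbers pair the samples is unknown, since no label says so. Deviations between replicates correlated between groups at -0.0427 to 0.0845, which cannot decide it with 2 libraries per group. With the replicate block 1 gene was called between IFE cells and 4 for the interaction, and no call of a member changed. Values that changed sign were all outside the threshold. The interaction was 0.67 for Krt18 with limma on log2 CPM, 1.38 and 1.66 on log2 FPKM with pseudocounts of 1 (with or without filter) and 0.1, and 0.10 for Krt8 with a pseudocount of 1 (with or without filter). With each library left out it ran from -4.24 to 0.66 for Krt7 (0.02 without paw IFE library 2), -2.79 to 1.20 for Krt8 and -2.79 to 6.73 for Krt18 (0.24 without back IFE library 1). Both extremes of Krt18 are no sizes, since the remaining paw or back IFE library had 0 or 1 count. Between IFE cells it was -0.28 to 3.72 for Krt8 and -5.40 to 4.13 for Krt18, where the same holds for Krt18, and -0.27 for Krt18 on log2(FPKM + 0.1). The causes were not tested. Counts per kilobase of the longest coding transcript, chosen after seeing the data, gave a type II share of 48.2% in paw and 23.3% in back Merkel cells. Low counts limit Krt8, Krt18 and Krt20 in IFE cells and Krt19 everywhere.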
